A study of Mus musculus with 4 samples.

Results

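The 10 genes described here encode chains of the fibrillar and connective tissue collagens of types I, III, V, VI, XII and XIV, and were chosen by name. They were Col1a1, Col1a2, Col3a1, Col5a1, Col5a2, Col6a1, Col6a2, Col6a3, Col12a1 and Col14a1, 10 of 26252 features to which tags were assigned. Tags were summed per gene wherever the deposited assignment gave the Ensembl identifier of the gene. The libraries were made from hindlimbs and forelimbs of CD1 mouse embryos, an outbred stock, dissected at E14.5, with 2 biological replicates of each limb type. No mutation or treatment was given for either limb type. Limbs were not sorted into cell types, so each library mixes the RNA of skin, muscle, skeleton, tendon, vessels and loose connective tissue. The labels do not say how many embryos made up a sample, nor whether hindlimbs and forelimbs that share a number were taken from shared embryos. The comparison asked which genes are expressed at different levels in hindlimb and forelimb.

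Types I, III and V are fibrillar collagens, whose chains wind into triple helices that assemble into the banded fibrils of skin, tendon, bone and loose connective tissue. Type VI forms beaded microfilaments close to cells, including around muscle fibres, and types XII and XIV bind to the surface of fibrils. In the embryonic limb these collagens come mainly from fibroblasts, tendon cells, the perichondrium and early bone cells.

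Each library counts tags next to CATG, the site cut by the enzyme NlaIII in cDNA made from poly(A) RNA. In principle 1 tag stands for 1 transcript, so counts were not divided by transcript length. The total count was 5325279 and 5015295 tags in hindlimb replicates 1 and 2, and 4695786 and 1829647 tags in forelimb replicates 1 and 2. Of these counts, 81.3% to 85.2% lay in tags with a gene or cluster. Levels are given in CPM, counts scaled by library size and by TMM, a trimmed mean of ratios between libraries, over the tags with a gene. A single count equalled 0.224 and 0.254 CPM in the hindlimb libraries, and 0.256 and 0.621 CPM in the forelimb libraries. Each log2 fold change sets hindlimb over forelimb and is positive where hindlimb was higher. As a check of the labels, Pitx1, a hindlimb transcription factor, had 1137 and 1201 counts in hindlimb, against 13 and 2 counts in forelimb. Tbx5, a forelimb factor, had 4 and 6 counts in hindlimb, against 72 and 24 counts in forelimb, and both genes were called.

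The 10 genes took 260023 counts in 286 different tags, and all 10 passed the filter on low counts. They made up 1.56% and 1.48% of the gene-assigned counts of the hindlimb libraries, and 2.53% and 1.90% of those of the forelimb libraries. Both hindlimb libraries thus lay below both forelimb libraries. With the correction for tag composition described further on, the summed levels overlapped, at 18089 and 21296 CPM in hindlimb, against 20712 and 16649 CPM in forelimb. Col3a1 alone took 36.7% and 36.1% of the members' counts in hindlimb, against 61.9% and 51.2% in forelimb. By mean level over the 4 libraries the order was Col3a1, Col1a1, Col1a2, Col5a1, Col6a1, Col5a2, Col6a2, Col6a3, Col14a1 and Col12a1. Col3a1 lay above both type I chains in every library. The ranges over the libraries overlapped between Col1a1 and Col1a2, among Col5a1, Col6a1 and Col5a2, between Col6a2 and Col6a3, and among Col6a3, Col14a1 and Col12a1, so the order within these neighbours was not set apart by the spread.

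**Figure D1:**
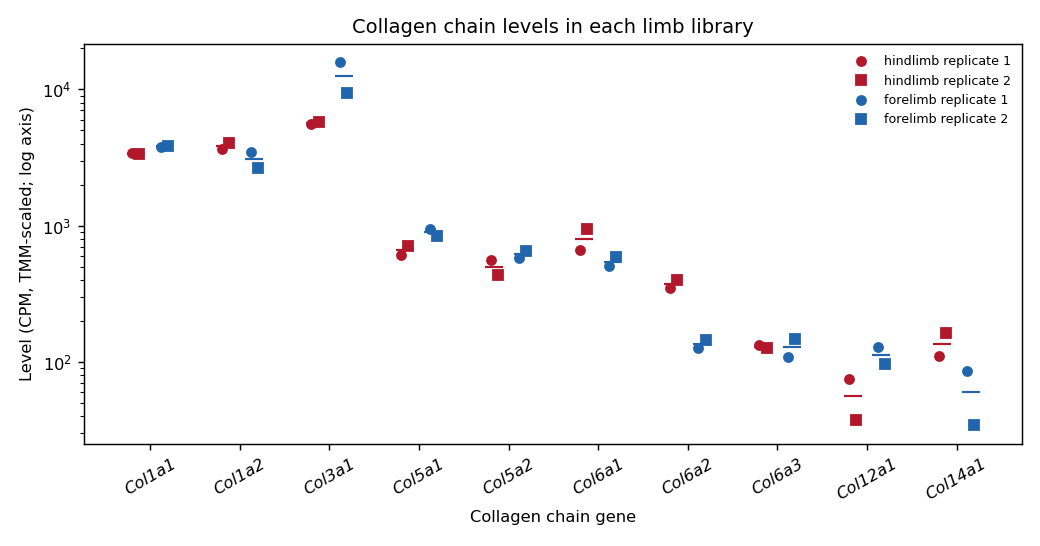
Level of each collagen chain gene in CPM (TMM-scaled, log axis) in the 2 hindlimb and 2 forelimb libraries, with points for libraries and lines for limb type means. Col3a1 reached 15848 CPM in forelimb replicate 1, Col6a2 lay higher in both hindlimb libraries, and only Col6a3 had limb types that overlapped.

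Of the 10 genes, 2 differed between limb types at an adjusted p under 0.05 (edgeR quasi-likelihood test, Benjamini-Hochberg over 13718 features), against 16.7% of all features tested. Col6a2 was the 1 gene called higher in hindlimb, where the share over all features was 9.58%. Col3a1 was the 1 gene called higher in forelimb, against 7.08% over all features. In 9 of the 10 genes the limb types did not overlap in CPM, which held for 62.8% of all features. Hindlimb was the higher in 4 of them and forelimb in 5, where each direction took 31.4% of all features. The log2 fold change was above 0 in 5 of the 10 genes, with a median of -0.08, beside 48.7% above 0 and a median of -0.03 over all features. In whole limbs, fewer cells of a type and less RNA per cell cannot be told apart.

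Values are given also with a tag-sequence offset, a correction per library for the base composition of the tags that was estimated only from differences between tags of the same gene. With that offset edgeR called 29 of the 13718 features, 0.211%, and 0 of the 10 collagen genes. An unadjusted edgeR p under 0.05 was met by 2 of the 10, beside 1440 of the 13718 features. Without the offset 4 of the collagen genes had an unadjusted edgeR p under 0.05. At least the 16.7% of all features that were called also met that threshold, and their full share is not given. DESeq2 called 3 of the 10, against 18.1% of the 11486 features it tested. With an offset for GC content alone 6.04% of features were called, and of the collagen genes only Col6a2. Col3a1, Col1a2, Col6a1, Col6a3 and Col14a1 changed sign with the tag-sequence offset, called the offset in what follows, so the value under it stands beside that of each collagen gene. Levels of single tags and of antisense tags are given without it.

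Type I collagen, the most abundant protein of tendon, skin and bone, joins 2 chains made by Col1a1 to 1 made by Col1a2. Col1a1, on chromosome 11, had 3413 and 3345 CPM in the hindlimb libraries, against 3797 and 3854 CPM in the forelimb libraries. The limb types did not overlap, but the difference was small, with a log2 fold change of -0.18 ± 0.31 (SE, n = 2 each, edgeR adjusted p = 0.730) and -0.30 with the offset. Col1a2, on chromosome 6, had 3641 and 4023 CPM in hindlimb, against 3492 and 2645 CPM in forelimb. Its forelimb libraries were both lower and stood further apart from each other than the hindlimb libraries, and its log2 fold change of 0.32 ± 0.32 (SE, n = 2 each, edgeR adjusted p = 0.522) became -0.09 with the offset.

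The tags below carried most counts of the type I chains and are shown because they lie at different sites of the last exon. Capitals mark the NlaIII site, and lower case the 17 deposited bases. Positions are on GRCm38 from GENCODE M21.
Col1a1, chr11:94951739-94951759, plus strand, exon 51, 3′ UTR: CATGgactttggaaaacattt
Col1a2, chr6:4541408-4541428, plus strand, exon 52, 3′ UTR: CATGgttccaaagaagtcttg
Col1a2, chr6:4540772-4540792, plus strand, exon 52, 3′ UTR: CATGtcttctatgcatctaca
Col1a2, chr6:4540997-4541017, plus strand, exon 52, 3′ UTR: CATGaacattcgcaccacttg

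The single Col1a1 tag held 81.3% of the gene's counts. It starts 1304 bases before the end of the longest coding transcript, and 5 further CATG sites follow it there. The first Col1a2 tag held 62.0% of that gene's counts and lies at its last CATG site, 137 bases before the transcript end. The third Col1a2 tag, 8 of whose 17 bases are G or C, had 241 and 290 CPM in hindlimb, against 670 and 493 CPM in forelimb. Its direction was opposite to that of the first, which had 2241 and 2633 CPM in hindlimb, against 2123 and 1450 CPM in forelimb.

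Type III collagen, a homotrimer made by Col3a1 and found with type I in skin, vessels and embryonic connective tissue, had the highest level of the family. Col3a1, on chromosome 1, had 5548 and 5737 CPM in the hindlimb libraries, against 15848 and 9445 CPM in the forelimb libraries. Both forelimb libraries were higher, and forelimb replicate 1 stood furthest out. The gene was 2.24-fold higher in forelimb, a log2 fold change of -1.16 ± 0.34 (SE, n = 2 each, edgeR adjusted p = 0.0268). Without forelimb replicate 1 the log2 fold change was -0.74 and the call was lost, and under the tag-sequence offset it was 0.37 ± 0.23 (edgeR adjusted p = 0.618).

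Col3a1 was counted almost wholly at 1 site, by 2 tags that differ at 1 base. Capitals mark the NlaIII site, and positions in the tag are counted from 1 at the first base after CATG. The forms are shown because their balance differed more between replicate numbers than between limb types.
Col3a1, chr1:45348788-45348808, plus strand, exon 51, 3′ UTR, as in GENCODE M21: CATGtgttcatcttgttttaa
Col3a1, the same site with T1C against GENCODE M21: CATGcgttcatcttgttttaa

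The T1C form held 66.5% of the counts of Col3a1 and the annotated form 24.7%. Of the counts of both forms, T1C made up 66.6% (Wilson 95% interval 66.0 to 67.3) and 80.7% (80.1 to 81.2) in hindlimb replicates 1 and 2. It made up 70.3% (70.0 to 70.7) and 82.2% (81.6 to 82.9) in forelimb replicates 1 and 2. The share was thus higher in replicate 2 of both limb types, and the limb types overlapped. These intervals cover counting error only, since the tags are PCR products without molecular identifiers. Over all tags with these other 16 bases, C stood at position 1 in 82768 counts, T in 30750, G in 9 and A in 6. Whether the forms are alleles of the stock was not tested. Both forms were lower in hindlimb on average. T1C had 3110 and 4070 CPM in hindlimb, against 10627 and 7024 CPM in forelimb. The annotated form had 1557 and 975 CPM in hindlimb, against 4481 and 1517 CPM in forelimb. The limb types did not overlap for T1C and overlapped slightly for the annotated form. Both are poor in G and C, with 5 and 4 of the 17 bases.

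A second site of Col3a1 went the other way. This tag carried no gene in the deposited table, although it matches the 3′ UTR of Col3a1 alone in GENCODE M21, 180 bases before the transcript end.
Col3a1, chr1:45349527-45349547, plus strand, exon 51, 3′ UTR: CATGccacaggatcttctctt
It had 1814 and 2392 counts in hindlimb, against 694 and 164 counts in forelimb, 5064 in all. Both hindlimb libraries were higher, although the main site was higher in CPM in both forelimb libraries. With unassigned tags that match 1 gene added, an alternative added once the values were known, the log2 fold change of Col3a1 was -1.02 (edgeR adjusted p = 0.0436).

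Type V collagen is a minor fibrillar collagen that starts fibrils and limits their width, and Col5a1 and Col5a2 encode its main chains. Col5a1, on chromosome 2, had 613 and 704 CPM in hindlimb, against 950 and 838 CPM in forelimb. Its log2 fold change was -0.44 ± 0.31 (SE, n = 2 each, edgeR adjusted p = 0.340), and -0.14 with the offset. Col5a2, on chromosome 1 beside Col3a1, had 556 and 432 CPM in hindlimb, against 583 and 649 CPM in forelimb. Its log2 fold change was -0.32 ± 0.31 (SE, n = 2 each, edgeR adjusted p = 0.515), and -0.21 with the offset. For both chains the forelimb libraries were higher without overlap, the test was not passed, and the sign held with the offset.

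Within Col5a1, 2 tags of the same 3′ UTR differed in opposite directions and are shown for that reason. Capitals mark the NlaIII site.
Col5a1, chr2:28038932-28038952, plus strand, exon 66, 3′ UTR: CATGagaaaaagccatattgg
Col5a1, chr2:28037170-28037190, plus strand, exon 66, 3′ UTR: CATGcccagagagaacaaagg
The first, with 6 G or C bases, had 72.0 and 28.9 CPM in hindlimb, against 230 and 239 CPM in forelimb. The second, with 9 G or C bases, had 129 and 138 CPM in hindlimb, against 48.9 and 31.1 CPM in forelimb. Neither tag had limb types that overlapped. The most abundant tag of Col5a2 lies across the stop codon and carries A17G against GENCODE M21. At that position G had 1970 counts, C had 1, and A and T had none, so the annotated form was not seen in these libraries.

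Type VI collagen is a trimer of the chains of Col6a1, Col6a2 and Col6a3, and loss of any of them causes muscle disease in humans. Col6a2, on chromosome 10, had 351 and 399 CPM in the hindlimb libraries, against 127 and 145 CPM in the forelimb libraries. The hindlimb libraries were both higher by a margin much wider than the gap between replicates. The gene was 2.76-fold higher in hindlimb, with 1.46 ± 0.31 as its log2 fold change (SE, n = 2 each, edgeR adjusted p = 0.00515), against 0.23 ± 0.20 under the tag-sequence offset (edgeR adjusted p = 0.743). With an offset for the GC content of the gene's tags alone, it stayed at 1.31 (edgeR adjusted p = 0.00634). Without forelimb replicate 1 the log2 fold change was 1.37 ± 0.50 (edgeR adjusted p = 0.0873), and without forelimb replicate 2 it was 1.55 ± 0.50 (edgeR adjusted p = 0.0525), so the size stayed and the error grew.

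Col6a1, its neighbour on chromosome 10, had 663 and 938 CPM in hindlimb, against 504 and 586 CPM in forelimb. The hindlimb libraries were higher without overlap, but 1 hindlimb library lay close to the forelimb range. The log2 fold change was 0.56 ± 0.32 (SE, n = 2 each, edgeR adjusted p = 0.236), and -0.05 with the offset. Col6a3, on chromosome 1, which encodes the long chain that binds other matrix molecules, had 133 and 127 CPM in hindlimb, against 108 and 148 CPM in forelimb. The hindlimb values lay between the forelimb values, with a log2 fold change of 0.02 ± 0.32 (SE, n = 2 each, edgeR adjusted p = 0.971) and -0.52 with the offset. Of the 3 chains of this trimer only Col6a2 was called, and differences in fold change between the chains were not tested.

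The tags of Col6a1 and Col6a2 show how far single sites can differ. Capitals mark the NlaIII site.
Col6a1, chr10:76708842-76708862, minus strand, exon 35, 3′ UTR: CATGgctcccccacattcccc
Col6a1, chr10:76709165-76709185, minus strand, exon 35, 3′ UTR: CATGagttcagcttgctggat
Col6a1, chr10:76709053-76709073, minus strand, exon 35, 3′ UTR: CATGcatcttggtctggtcct
Col6a2, chr10:76595775-76595795, minus strand, exon 28, 3′ UTR: CATGcccaatggcccaataaa

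The first Col6a1 tag lies at the last site, 71 bases before the transcript end, and 12 of its 17 bases are G or C. It had 361 and 636 CPM in hindlimb, against 29.4 and 24.9 CPM in forelimb. The second, 394 bases before the transcript end with 8 G or C bases, had 83.2 and 69.7 CPM in hindlimb, against 247 and 306 CPM in forelimb. Their log2 fold changes were 4.17 and -1.86, so the sum of the gene joins a strong difference in each direction. The third, with 9 G or C bases, had 111 and 146 CPM in hindlimb, against 76.6 and 48.5 CPM in forelimb. The Col6a2 tag, at the last site 34 bases before the transcript end, held 74.9% of the gene's counts. It had 283 and 343 CPM in hindlimb, against 49.7 and 57.2 CPM in forelimb, without overlap. The other 20 tags of Col6a2 together had 68.9 and 56.3 CPM in hindlimb, against 77.6 and 88.2 CPM in forelimb. They were lower in both hindlimb libraries, so the direction of the gene rested on this single tag.

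Types XII and XIV are fibril-associated collagens with interrupted triple helices, and both bind to type I fibrils in tendon, skin and fascia. Col12a1, on chromosome 9, had 74.9 and 37.5 CPM in hindlimb, against 128 and 96.9 CPM in forelimb. Both forelimb libraries were higher, and the hindlimb replicates differed from each other about as much as the limb types did. The log2 fold change was -1.01 ± 0.36 (SE, n = 2 each, edgeR adjusted p = 0.0646). With the offset it was -0.91 ± 0.26 (edgeR adjusted p = 0.190), the largest fold change among the 10 genes under that offset, and it also missed the threshold. With unassigned sense tags added the log2 fold change was -0.95, just under the threshold (edgeR adjusted p = 0.0490). With the GC offset it was -0.49 (edgeR adjusted p = 0.326). Leaving out single libraries moved it widely. The log2 fold change was -1.60 without hindlimb replicate 1, where the gene was called, but -0.58 without hindlimb replicate 2 and -0.78 without forelimb replicate 1, where edgeR's adjusted p was 0.398 and 0.376.

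Col14a1, on chromosome 15, went the other way, with 111 and 162 CPM in hindlimb, against 85.8 and 34.2 CPM in forelimb. Both hindlimb libraries were higher and the replicates stood well apart in each limb type. The log2 fold change was 1.15 ± 0.39 (SE, n = 2 each, edgeR adjusted p = 0.0511), and -0.36 with the offset. It was 1.99 without forelimb replicate 1 and 1.38 without hindlimb replicate 1, where the gene was called, but 0.66 without forelimb replicate 2 and 0.86 without hindlimb replicate 2, where edgeR's adjusted p was 0.456 and 0.144. With unassigned sense tags added it was 0.66 (edgeR adjusted p = 0.175). Forelimb replicate 2 held only 55 counts of it.

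The difference between tags of Col14a1 is shown by its tag at the last site, with 9 G or C bases, and by its most abundant tag, with 11. Capitals mark the NlaIII site.
Col14a1, chr15:55520411-55520431, plus strand, exon 48, 3′ UTR: CATGtcagtgaccttgctggt
Col14a1, chr15:55519985-55520005, plus strand, exon 48, coding: CATGgatctgtggagcgcagg
The first had 17.9 and 22.6 CPM in hindlimb, against 2.05 and 1.24 CPM in forelimb. The second had 44.5 and 96.6 CPM in hindlimb, against 46.1 and 10.6 CPM in forelimb. The limb types did not overlap at the first site and overlapped at the second. A further tag, with 7 G or C bases, was lower in hindlimb at a log2 fold change of -5.29, and -3.23 when corrected for tag composition. It had the smallest adjusted p of the 5 tested tags (edgeR diffSpliceDGE, tag level, adjusted p = 0.00687). Of the 4 with more than 8 G or C bases, 3 were above 0.

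**Figure D2:**
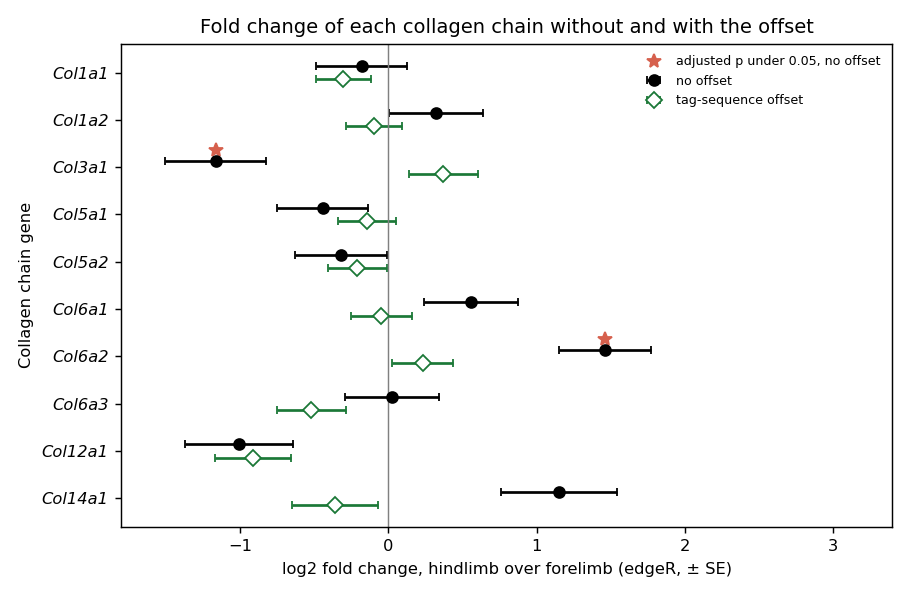
Log2 fold change of each collagen chain gene, hindlimb over forelimb (edgeR, ± SE), without an offset (filled circles) and with the tag-sequence offset (open diamonds). Stars mark Col3a1 and Col6a2, called without the offset; Col3a1 went to 0.37 and Col6a2 to 0.23 with it, while Col12a1 stayed near -1.01 at -0.91.

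In 6 of the 10 genes the use of tags differed between limb types (edgeR diffSpliceDGE, adjusted p under 0.05), against 10.4% of 8694 genes. These were Col1a1, Col3a1, Col5a1, Col6a1, Col6a2 and Col14a1, with the smallest adjusted p at Col3a1 (8.4e-05) and Col6a1 (1.3e-04). The collagen genes had 5 to 15 tags tested each, and the 8694 genes were not matched to them in tag number or counts. The contrast with 10.4% therefore cannot be read as a trait of collagens. The calls changed with the library left out, and did not hold when a forelimb library was left out. The share called over all genes is not given for those fits. After counts were divided by the tag-sequence factor, 0 of the 10 genes were called, with 2 at an unadjusted p under 0.05, against 0.204% of genes called. The factor was fitted on such within-gene differences, so part of that loss is built in.

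The fold change of a tag went with its base composition. Across the 96 tested tags of the 10 genes, Pearson's r between the number of G and C bases and the log2 fold change was 0.55 and Spearman's rho 0.60. Within genes r was 0.52. Over all 37805 tested tags r was 0.59, so the collagen tags followed the table as a whole. Tags of 1 gene share their RNA and their libraries and are not independent, so these are descriptions. With more than 8 G or C bases, 34 of 46 collagen tags were higher in hindlimb, or 73.9%, beside 75.2% of all tags. With 8 or fewer, 36 of 50 were lower in hindlimb, or 72.0%, beside 70.3% of all tags. Over all tags the median log2 fold change was -1.06 at 4 G or C bases, -0.13 at 8 and 2.0 at 12. The 2 forms at the main site of Col3a1 have 4 and 5 such bases and the leading tag of Col6a1 has 12. The leading tag of Col6a2 has 8 and lay far from the median of such tags. Its log2 fold change was 2.54, and 1.03 after correction with the tag-sequence factor. The SD of the within-gene fold changes of the 96 tags was 1.52 on the log2 scale, and 0.762 after correction with the tag-sequence factor. Because the factor was itself fitted to within-gene contrasts, part of this fall in SD was fixed in advance. What gave rise to the composition difference between libraries was not tested.

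**Figure D3:**
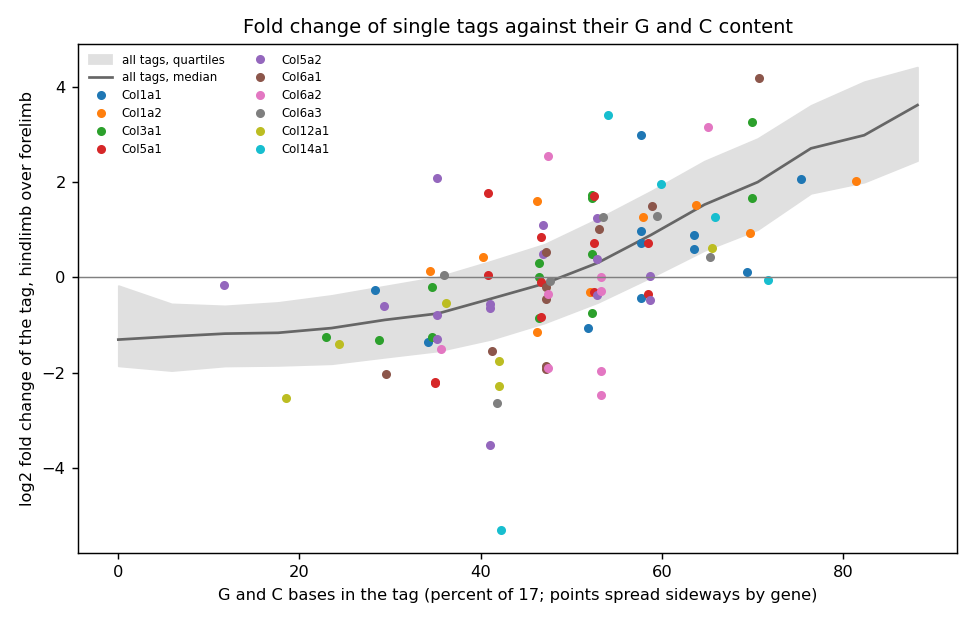
Log2 fold change, hindlimb over forelimb, of the 96 tested tags of the 10 collagen genes (coloured points) against the percent of G and C in the tag, with the median (line) and quartiles (band) of all 37805 tested tags. Collagen tags rich in G and C lie mostly above 0 and poor ones mostly below, along the line of all tags.

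Ratios between pairs of chains or types were compared within each library, so that the depth of a library drops out. Not all of these pairs share a trimer or a fibril. The Col1a1 to Col1a2 ratio was 0.938 and 0.831 in hindlimb, against 1.09 and 1.46 in forelimb. The protein holds both chains at a fixed ratio, and no library reached the 2 to 1 of the trimer in tag counts. Tag counts measure RNA and differ by site, so their ratio between genes does not measure the make-up of the trimer. The Col3a1 to Col1a1 ratio was 1.63 and 1.72 in hindlimb, against 4.17 and 2.45 in forelimb. It was lower in both hindlimb libraries.

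The Col6a1 to Col6a2 ratio was 1.89 and 2.35 in hindlimb, against 3.96 and 4.03 in forelimb. The Col6a3 to Col6a1 ratio was 0.20 and 0.135 in hindlimb, against 0.214 and 0.252 in forelimb. Both type VI ratios were lower in both hindlimb libraries, but their log2 differences of -0.92 and -0.50 depended on the tags and the correction used. Col6a1 to Col6a2 was at 1.60 from the most abundant tags or the last sites alone, and Col6a3 to Col6a1 at 0.31 with the GC offset and -4.19 from the most abundant tags. The Col12a1 to Col14a1 ratio was 0.677 and 0.232 in hindlimb, against 1.5 and 2.84 in forelimb. This was the largest contrast of the 8, a log2 difference of -2.38, in the 2 least abundant members. The Col5a1 to Col5a2 ratio, 1.10 and 1.63 in hindlimb against 1.63 and 1.29 in forelimb, overlapped between limb types.

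Type V over type I was 0.166 and 0.154 in hindlimb, against 0.210 and 0.229 in forelimb. Type VI over type I was 0.163 and 0.199 in hindlimb, against 0.101 and 0.135 in forelimb. Of the 8 ratios compared, 7 did not overlap between limb types, each with an exact two-sided permutation p of 0.333, which is the smallest that 2 against 2 libraries allow, and 0.381 after Benjamini-Hochberg adjustment. Col5a1 to Col5a2 had an exact permutation p of 0.667. No ratio could reach 0.05 in this design.

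With the tag-sequence offset, type V over type I was 0.184 and 0.183 in hindlimb, against 0.174 and 0.185 in forelimb. The limb types then overlapped within a narrow range, where the uncorrected ratios did not overlap. They also overlapped for Col1a1 to Col1a2, with 1.04 and 0.940 in hindlimb against 1.03 and 1.27 in forelimb. The same held for type VI over type I, with 0.144 and 0.134 in hindlimb against 0.111 and 0.140 in forelimb. The Col3a1 to Col1a1 ratio turned round, with 2.42 and 3.50 in hindlimb against 2.38 and 1.36 in forelimb. Col6a1 to Col6a2 shrank to a log2 difference of -0.27. Col12a1 to Col14a1 shrank to -0.74, with 0.783 and 0.575 in hindlimb against 0.818 and 1.53 in forelimb. The Col6a3 to Col6a1 ratio kept its contrast at -0.48, with 0.195 and 0.185 in hindlimb against 0.255 and 0.273 in forelimb.

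**Figure D4:**
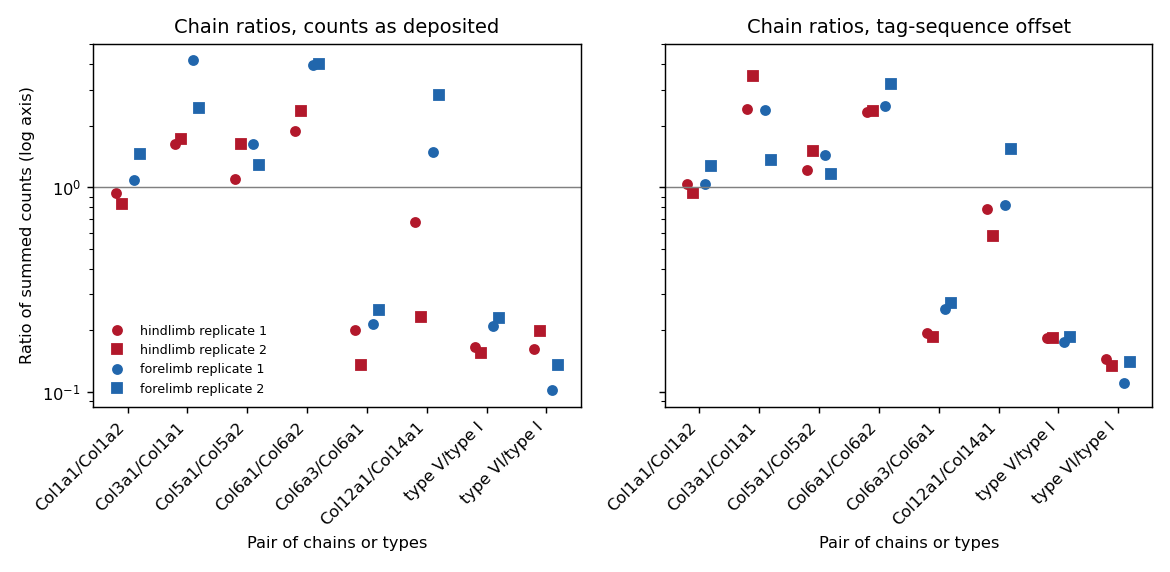
Ratio of summed counts (log axis) for 8 pairs of chains or types in each of the 4 libraries, from counts as deposited (left) and with the tag-sequence offset (right). Type V over type I lay at 0.154 to 0.229 on the left and at 0.174 to 0.185 on the right, and Col3a1 to Col1a1 turned round.

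Tags on the opposite strand were counted at the sites of both type I chains. These tags match the antisense strand of the gene next to its CATG sites and had no gene in the deposited table. They summed to 6477 counts at Col1a1 and 10309 at Col1a2, and to 44 to 508 counts at each of the other 8 genes. For every 100 sense counts, Col1a1 had 11.1 and 6.91 antisense counts in hindlimb, against 18.7 and 17.8 in forelimb. Col1a2 had 12.9 and 12.1 in hindlimb, against 36.3 and 31.3 in forelimb. Both genes thus had a lower antisense share in both hindlimb libraries, and at Col3a1, with far more sense counts, the share stayed between 0.183 and 0.689.

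Most antisense counts fell on the sites below, shown in the antisense direction with the NlaIII site in capitals. Since CATG reads the same on both strands, each site can give 1 tag in each direction.
Col1a1, chr11:94953008-94953028, minus strand, 3′ UTR: CATGctttattccagcaatca
Col1a2, chr6:4540980-4541000, minus strand, 3′ UTR: CATGggtttctttttatttta
Col1a2, chr6:4541391-4541411, minus strand, 3′ UTR: CATGggcaagaaggaaaatga

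The Col1a1 antisense tag had 284 and 157 CPM in hindlimb, against 426 and 401 CPM in forelimb. It outnumbered the sense tag of its site, which lies 18 bases from the transcript end and had 61.9 and 70.0 CPM in hindlimb, against 125 and 211 CPM in forelimb. That sense tag, given as CATGtggaaatgacccaaaaa, is cut so close to the poly(A) tail that its last bases are A. The first Col1a2 antisense tag had 206 and 198 CPM in hindlimb, against 712 and 426 CPM in forelimb. It was about as abundant as the sense tag opposite, which is the third Col1a2 tag described with the type I chains. The second had 157 and 184 CPM in hindlimb, against 409 and 253 CPM in forelimb. Its sense partner is the leading Col1a2 tag. At this site the antisense tag was lower and the sense tag higher in both hindlimb libraries. Other antisense tags went the other way. A Col1a2 tag in a coding exon, with 12 G or C bases, had 50 and 58 counts in hindlimb, against 1 and 2 counts in forelimb, and a Col1a1 tag with 9 had 98 and 69 counts in hindlimb, against 34 and 9 counts in forelimb. Neither the part of tag composition in these differences nor the source of the antisense tags was tested.

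**Figure D5:**
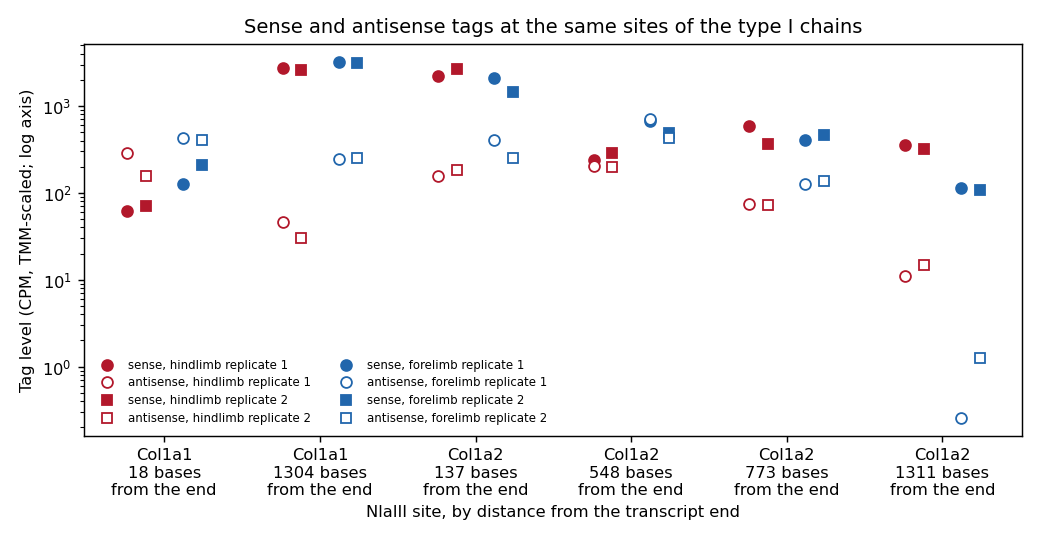
Level in CPM (TMM-scaled, log axis) of the sense tag (filled) and antisense tag (open) at NlaIII sites of Col1a1 and Col1a2, ordered by gene and by distance of the site from the transcript end, in the 4 libraries. At the Col1a1 site 18 bases from the end the antisense tag lies above the sense tag in each library, and at the Col1a2 site 548 bases from the end the 2 lie close together.

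Genes that make, process and bind collagens were counted beside the chains. Over all features, 9.58% were called higher in hindlimb and 7.08% higher in forelimb, with a median log2 fold change of -0.03. Numbers called in each list below stand beside these shares, and no list was tested as a set. Of 22 collagen synthesis enzymes and chaperones, 21 were tested, 3 were called higher in hindlimb and 2 higher in forelimb, with a median log2 fold change of 0.24. P4hb, the shared subunit of prolyl 4-hydroxylase, had 733 and 1183 CPM in hindlimb, against 307 and 415 CPM in forelimb, a log2 fold change of 1.41 ± 0.34 (SE, edgeR adjusted p = 0.00997). P4ha2, a catalytic subunit of the same enzyme, went the other way at -2.13 ± 0.40 (SE, edgeR adjusted p = 0.00278). Slc39a13, a zinc transporter needed for connective tissue, and Plod3, a lysyl hydroxylase, were higher in hindlimb, at 1.65 (edgeR adjusted p = 0.00794) and 1.15 (edgeR adjusted p = 0.0320). Serpinh1, the collagen chaperone of the endoplasmic reticulum and the most abundant of these genes, had 1936 and 1857 CPM in hindlimb, against 2356 and 1889 CPM in forelimb, and was not called. It was named after its values had been seen.

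Of 13 genes for procollagen cleavage and cross-linking, 11 were tested and 1 was called, higher in hindlimb, with a median of -0.12. Bmp1, which removes the C-terminal propeptide of fibrillar procollagens, had 107 and 240 CPM in hindlimb, against 40.7 and 21.7 CPM in forelimb, a log2 fold change of 2.44 ± 0.42 (SE, edgeR adjusted p = 0.00161). Of 12 collagen receptors, 11 were tested and 2 were called, both higher in hindlimb. They were Cspg4, which binds type VI collagen, at 1.8 (edgeR adjusted p = 0.00299) and Mrc2, which takes up collagen fragments, at 1.32 (edgeR adjusted p = 0.0108). Of 27 other collagen chains, 24 had tags and 20 were tested. Col4a2, a basement membrane chain, was higher in hindlimb at 1.13 (edgeR adjusted p = 0.0228). Col8a1 at -1.47, Col4a5 at -1.35 and Col6a6, a further type VI chain, at -2.58 were higher in forelimb, with adjusted p of 0.0102, 0.0395 and 0.0145 (edgeR). With the tag-sequence offset edgeR called 0 of the 63 tested genes of these 4 lists. Of the 63, 9 had an unadjusted p under 0.05, beside 1440 of all 13718 features. The direction turned for P4hb, at -0.21, Mrc2, at -0.18, and Col4a2, at -0.16. Bmp1 then lay at 0.31, Slc39a13 at 0.31, Plod3 at 0.29, Cspg4 at 0.21, P4ha2 at -0.51, Col8a1 at -0.48 and Col4a5 at -0.076, while Col6a6 stayed at -2.49 (edgeR adjusted p = 0.180). Col6a6 rests on 27 and 3 counts in hindlimb, against 85 and 32 counts in forelimb.

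Markers of the cells that could hold these collagens were measured in the same libraries, and their part in the collagen differences was not tested. Calls in each marker list stand beside 9.58% of all features called higher in hindlimb and 7.08% higher in forelimb. Fibroblast and connective tissue markers, led by Twist1, summed to 2813 and 2696 CPM in hindlimb, against 2803 and 2937 CPM in forelimb, with 2 of 13 higher in hindlimb and 3 higher in forelimb. Osteoblast markers, led by Ibsp, summed to 221 and 222 CPM in hindlimb, against 496 and 537 CPM in forelimb, with 2 of 6 tested higher in forelimb. Of this list Ibsp and Spp1 were called, while Runx2, Sp7, Alpl and Dmp1 were not. Tendon markers summed to 382 and 384 CPM in hindlimb, against 444 and 539 CPM in forelimb, with 1 of 6 higher in hindlimb and 2 higher in forelimb.

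Skeletal muscle markers, led by Actc1, summed to 2421 and 2317 CPM in hindlimb, against 6990 and 5619 CPM in forelimb, with 5 of 10 called, each higher in forelimb. This was a wide gap, and 2 of the 10 were still called with the tag-sequence offset. With that offset 1 osteoblast marker and 1 fibroblast and connective tissue marker were also called, each higher in forelimb. Cartilage markers, led by Col2a1, summed to 3476 and 4673 CPM in hindlimb, against 2808 and 2589 CPM in forelimb, with 2 of 8 higher in hindlimb and 1 higher in forelimb. Erythroid markers summed to 7379 and 8660 CPM in hindlimb, against 12306 and 9813 CPM in forelimb, with 1 of 4 called in each direction. Epidermis markers summed to 1476 and 1878 CPM in hindlimb, against 1121 and 1192 CPM in forelimb, with 2 of 7 called in each direction. Over the 4 libraries endothelium markers lay between 145 and 193 CPM and macrophage markers between 31.7 and 72.7 CPM. With the tag-sequence offset the cartilage sums overlapped, at 3261 and 3183 CPM in hindlimb against 3505 and 3195 CPM in forelimb, and so did the erythroid and fibroblast sums. The epidermis sums turned, at 1218 and 1229 CPM in hindlimb against 1338 and 1535 CPM in forelimb. The muscle sums stayed apart, at 2919 and 2912 CPM in hindlimb against 5587 and 5211 CPM in forelimb, as did the osteoblast and tendon sums, both lower in hindlimb. The macrophage markers Cd68 and Adgre1 had no count in at least 1 library.

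Because members went in both directions, their mean profile was nearly flat, with centred log2 levels of 0.02 and 0.04 in hindlimb, against 0.07 and -0.13 in forelimb. The 3 genes nearest to that profile among 1931 candidates with a mean of at least 100 CPM were Rnf26, Kdm5b and Adh5, with root mean square differences of 0.0303, 0.0327 and 0.0330 over the 4 libraries. With 4 libraries, many genes lie close to a flat profile.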

How the data were processed

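DGE-SAGE tag profiling with NlaIII was done on total RNA of E14.5 CD1 limbs, per the labels' protocols. The authors deposited 1 table of raw whole-number counts for 733961 tags, each 17 bases long, with a UniGene cluster and Ensembl gene where assigned; 270911 tags had no count. The submitters' processing notes name Bowtie and the build mm9, while the Bowtie version and options are not given in the sources used. Counts were summed per gene or, without one, per cluster. Tags with neither, 14.8% to 18.7% of a library, were left out of totals and fits. Symbols and positions are from GENCODE M21 on GRCm38, and tags were matched to its transcripts next to each CATG. Of the 286 collagen tags, 127 matched exactly, and 0 matched several genes.

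Fits used edgeR 4.0.16 under R 4.3.3 with hindlimb set against forelimb (TMM, filterByExpr, glmQLFit and glmQLFTest, Benjamini-Hochberg over all features at 0.05, no replicate block, 2 residual degrees of freedom). The p-values measure only the spread between these samples. The tag-sequence offset models base and position, first dinucleotide, and squared GC and purine numbers per library. It was fitted on 42831 tags with at least 20 counts in 9913 genes. The GC offset is a lowess of span 0.3. Tag usage was tested with diffSpliceDGE, and DESeq2 1.42.0 was an alternative, as were other normalizations, filters, tag choices, thinning to 1558607 counts, and leaving out each library. Scripts were tested on simulated data.

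Same-numbered libraries did not deviate together (correlation of deviations -0.10). Chain ratios were tested by exact permutation over libraries. Named were all members, their tags with at least 10% of a member's counts, up to 4 called genes per pathway list with the smallest p, and the most abundant gene per marker list. Tags and genes outside this rule were picked once values were known, among them the second Col3a1 site, the antisense tags, Serpinh1 and the called markers. The members and lists were chosen with earlier results of these data known.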

Additional observations from a re-analysis of the deposited data

Results flagged for a closer look

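Tags that lie next to a CATG site of a collagen gene but carried no gene in the deposited table are left out of the levels and calls of the genes, apart from the alternative with unassigned sense tags added, and every one of the 10 genes had more such counts than the 3 that a count of 0 allows. On the sense strand they summed over the 4 libraries to 6021 counts at Col3a1, 800 at Col5a1, 532 at Col5a2, 487 at Col14a1, 407 at Col6a1, 399 at Col12a1, 384 at Col6a2, 212 at Col6a3, 209 at Col1a2 and 6 at Col1a1. Set beside the assigned sense counts, these came to 35.0 for every 100 at Col12a1, 32.0 at Col14a1, 12.1 at Col6a3 and 4.84 at Col3a1, so the levels of the 2 fibril-associated collagens leave out the largest share.

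On the antisense strand the counts were 10309 at Col1a2, 6477 at Col1a1, 508 at Col5a1, 426 at Col3a1, 163 at Col5a2, 93 at Col6a2, 77 at Col12a1, 67 at Col6a1, 66 at Col14a1 and 44 at Col6a3. A further sense tag of Col1a1, with 305 and 175 counts in hindlimb and 322 and 226 counts in forelimb, was given to another cluster.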

How the results depend on the processing

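The settings "library totals" and RLE size factors left the counts of called collagen genes at 1 higher in hindlimb and 1 higher in forelimb. Over all features, calls in either direction were 2076 of 11486 with DESeq2, 2583 of 23162 with no filter and 2584 of 11240 after thinning. They were 2722 of 12486 with the most abundant tag, 2189 of 9842 with the last NlaIII site and 2024 of 11435 with only tags of 1 M21 gene. With unassigned tags added they were 2483 of 14359. The count of collagen genes higher in hindlimb was 2 with DESeq2, with no filter on low counts, with a replicate block and after thinning. It was also 2 with the most abundant tag, the last NlaIII site or only tags of 1 M21 gene. It was 0 with the tag-sequence offset and 0 to 2 with a library left out (0 without forelimb replicate 2, 2 without hindlimb replicate 1). The count higher in forelimb was 2 with no filter, after thinning and with unassigned tags added, and 0 with the GC offset, the tag-sequence offset and only tags of 1 M21 gene. It was 0 to 2 with a library left out (0 without forelimb replicate 1, 2 without hindlimb replicate 1). Over all features 2285 calls became 829 with the GC offset, 29 with the tag-sequence offset and 950 to 3900 with a library left out (3900 without hindlimb replicate 1). The labels do not say that replicate numbers pair the samples. A replicate block gave 2151 calls over all features and 1 collagen gene higher in forelimb, Col12a1 in place of Col3a1 (-1.12, edgeR adjusted p = 0.0618). Crossed numbers as a block gave 2 collagen genes higher in each limb type and 3170 calls. Differing tag usage was called in 3 collagen genes with the block, 5 with tags of at least 1 count on average, 0 with the tag-sequence factor and 0 to 7 with a library left out.

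The log2 fold change turned its sign for Col1a1 with the GC offset (0.44) and the last site (0.069), for Col1a2 (-0.094), Col3a1 (0.37), Col6a1 (-0.045) and Col14a1 (-0.36) with the tag-sequence offset, for Col6a1 with the GC offset (-0.35) and for Col5a2 with the most abundant tag (0.38). Col6a3, with a fold change near 0, turned to -0.020 with library totals, lay between -0.19 and 0.25 with a library left out (below 0 without replicate 1 of either limb type), and turned to -0.044 and -0.52 with the GC and tag-sequence offsets, and -0.11 and -0.20 with the most abundant tag and the last site. Col3a1 was not called from tags of 1 M21 gene (-0.88), the last site (-0.33) or with the GC offset (-0.33). Tags that match M21 held only 33.4% of its counts, without the T1C form, and the last site held 4.18%. Col6a1 was called from the most abundant tag alone (4.16) and the last site alone (4.06). In all, 130 alternative values for single genes kept direction and call, 15 turned, 17 gained and 8 lost a call, and 27 of 48 alternative chain ratios moved by more than the spread between replicates. Among these the log2 difference turned its sign for Col3a1 to Col1a1 (0.70) and type V over type I (0.028) with the tag-sequence offset, Col6a1 to Col6a2 (1.60) with the most abundant tag or last site, and Col6a3 to Col6a1 (0.31) and type VI over type I (-0.37) with the GC offset. The cause was not tested. Precision was limited most for Col14a1, with 55 counts in forelimb replicate 2, and Col12a1, with 148 in hindlimb replicate 2.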
